A study of Mus musculus with 4 samples.

Results

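Adipocyte genes of ear skin were followed across 4 arrays: genes of adipocyte identity, of lipolysis and of lipid storage, chosen by name from a list of 34. A gene was included when a probe set of the deposited table carried its symbol alone in the platform annotation, and 31 of the 34 were found among 19938 named genes. Cfd, Adrb3 and Acsl1 were not analysed here. Each of the 31 was read by 1 probe set. The defining adipocyte genes Adipoq, Retn, Plin1, Cidec and Fabp4 lay above the median of all named genes on all 4 arrays.

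RNA came from whole ears of 8-week-old female mice of 2 genotypes. Mice with floxed Traf6 alleles (Traf6f/f), written f/f below, were set against mice with an epithelial knockout of the gene (Traf6EKO), written EKO, the series title calling the deficiency keratinocyte-specific. TRAF6 is an adaptor that passes signals of Toll-like, IL-1 and IL-17 receptors. Ears were left without imiquimod (untreated) or given 10 mg per day of a cream containing imiquimod (IMQ), a TLR7 agonist that provokes psoriasis-like inflammation, for 2 days. The 4 groups, with 1 array each, were untreated and IMQ-treated f/f skin and untreated and IMQ-treated EKO skin. The driver of the deletion, and whether untreated ears received a cream without IMQ, were not stated in the sources used here, nor was it stated whether an array holds RNA of 1 mouse or of pooled mice; the series description gives n = 2. No value below therefore has a replicate error, differences carry no p-value, and the number of arrays limits the precision. Traf6 itself did not separate the genotypes, at 9.51 (untreated f/f), 9.65 (untreated EKO), 9.35 (treated EKO) and 9.30 (treated f/f) on the log2 scale. The position of its probes against the deletion is not known here, and whole ear holds other cells, so this level checks no label; EKO and f/f below mean the arrays labelled so.

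White adipocytes of the skin lie under the dermis and store triglyceride in a single large droplet coated with perilipins. Lipases release fatty acids and glycerol from it on demand, while lipoprotein lipase, fatty acid carriers and the acyltransferases of triglyceride synthesis refill it. PPARG and C/EBP alpha switch on this programme during adipocyte formation, and the mature cell secretes hormones such as adiponectin and leptin. Several of these genes are also used by sebaceous gland, muscle, endothelial cells and macrophages, all present in an ear.

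With IMQ, most adipocyte genes were lower in f/f skin, and lower by much less in EKO skin. Of the 31 genes, 28 were below 0 in f/f and 17 were at least 2-fold lower while reaching the floor, which was the median level of all named genes on an array (6.93 to 6.98). In this comparison 30 of the 31 reached it, all but Ucp1. Reaching it on 1 of the arrays compared was enough. Among the 17, Lep, Thrsp and Acvr1c reached it only on the untreated array, so their folds are imprecise. By the same rule 2.63% of the 10548 named genes reaching the floor were that much lower and 3.82% that much higher, and 0 of the 31 adipocyte genes were higher by 2-fold. The median difference over the 31 was -1.04 (2.06-fold lower), against 0.01 over all named genes above the floor. In EKO skin the median was -0.29 (1.22-fold lower), against -0.01 over all genes. There 29 of 31 were below 0 and 29 reached the floor, but only Lep was at least 2-fold lower, where 0.0972% of 10285 genes were that much lower and 0.671% that much higher. Lep too reached the floor in EKO only without IMQ. In bulk tissue, fewer adipocytes, less RNA per adipocyte and a different mix of tissues in the ear sample cannot be told apart. Skeletal muscle markers, described below, were lower with IMQ too, 16 of 16 in each genotype. Whether the difference lay in adipocytes was not tested.

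**Figure D1:**
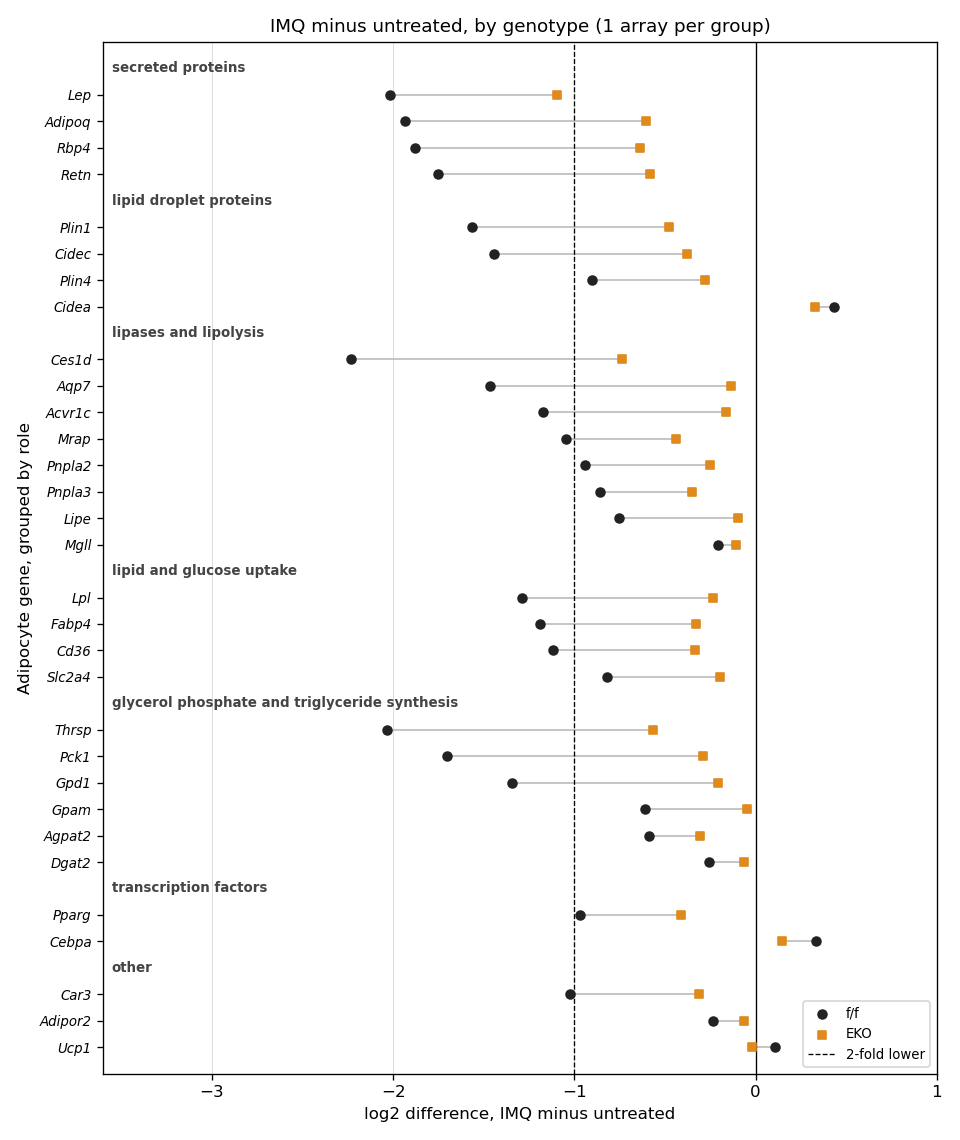
Log2 difference between IMQ and untreated skin (x axis) for each of 31 adipocyte genes (y axis, grouped by role), with 1 array per group and no error bar; circles stand for f/f, squares for EKO, and the dashed line marks 2-fold lower. The square lies closer to 0 than the circle in all 31 genes, and Cidea and Cebpa are the 2 genes above 0 in both genotypes.

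The levels of most genes followed 1 order of the arrays. In 26 of the 31 genes the level was highest in untreated f/f skin, then untreated EKO, then treated EKO, and lowest in treated f/f skin. This order held for 18.1% of the 10646 named genes above the floor on any array, and for 14 of 16 skeletal muscle markers. Among other adipocyte and triglyceride genes, the wider list described below, 19 of 47 had it. So did 4 of 10 endothelial, 5 of 12 macrophage, 4 of 10 fibroblast, 3 of 10 cartilage, 1 of 10 neutrophil and 0 of 9 sebaceous gland markers. Of the 31 genes, Cidea, Mgll, Dgat2, Cebpa and Ucp1 were the 5 outside it. All comparisons below use these same 4 arrays, so they are not independent of each other.

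**Figure D2:**
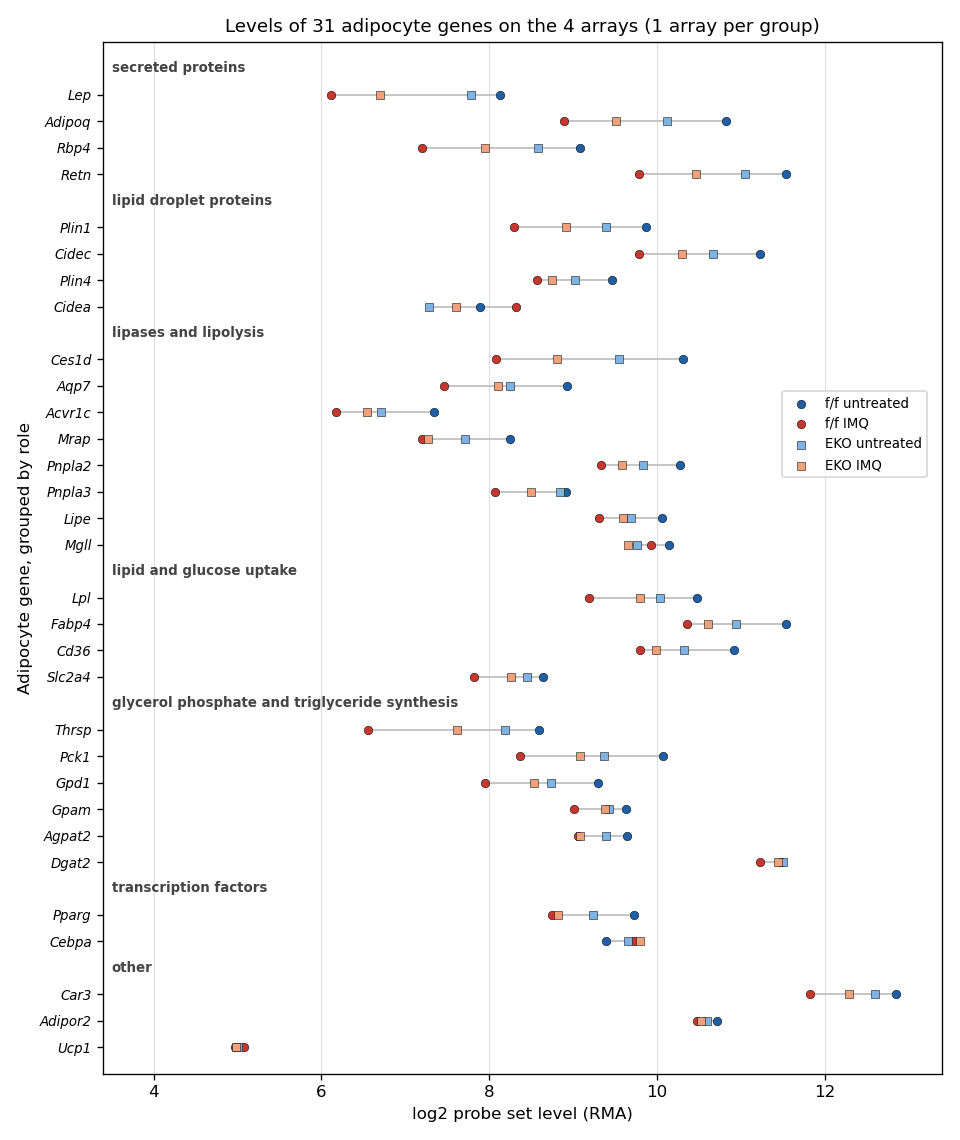
Log2 level (x axis, RMA scale) of the 31 adipocyte genes (y axis, grouped by role) on the 4 arrays; each point is 1 array and the grey line spans the 4. In 26 genes the points run from treated f/f (lowest) through treated EKO and untreated EKO to untreated f/f (highest), while Cidea is highest in treated f/f skin; levels of different genes are not comparable.

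The sequences upstream of the genes with the largest IMQ difference in f/f skin are shown because these genes differed together, beside a gene of lipolysis, Mgll, that differed little. Windows of 300 bases, from 250 before to 50 after an annotated start, came from RefSeq (GRCm38.p6) and were found for 22 of the 31 genes; the rule for printing also took in Ces1d and Dgat2. The 250 bases before the start are printed, 5′ to 3′ on the strand of the gene, with capitals for exact matches, on either strand, to the motifs named after them. The Lep stretch is chr6:29059971-29060220 (plus strand), that of Adipoq chr16:23146286-23146535 (plus), that of Thrsp chr7:97417551-97417800 (minus), and those of Mgll, with 2 annotated starts, chr6:88724162-88724411 and chr6:88724454-88724703 (plus).
Lep: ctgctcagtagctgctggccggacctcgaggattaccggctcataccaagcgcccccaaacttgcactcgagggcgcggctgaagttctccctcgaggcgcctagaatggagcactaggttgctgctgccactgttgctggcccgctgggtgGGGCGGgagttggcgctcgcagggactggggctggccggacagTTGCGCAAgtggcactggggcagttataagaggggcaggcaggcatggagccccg
Adipoq: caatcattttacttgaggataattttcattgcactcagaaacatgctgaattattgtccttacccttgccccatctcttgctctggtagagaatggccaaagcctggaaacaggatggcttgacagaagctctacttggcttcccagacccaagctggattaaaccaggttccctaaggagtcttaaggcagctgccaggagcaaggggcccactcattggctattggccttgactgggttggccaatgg
Thrsp: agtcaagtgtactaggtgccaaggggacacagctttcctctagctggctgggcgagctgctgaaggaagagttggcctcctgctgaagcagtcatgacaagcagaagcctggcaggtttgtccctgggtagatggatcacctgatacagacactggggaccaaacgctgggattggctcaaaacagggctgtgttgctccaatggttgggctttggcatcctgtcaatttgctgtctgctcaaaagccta
Mgll, first start: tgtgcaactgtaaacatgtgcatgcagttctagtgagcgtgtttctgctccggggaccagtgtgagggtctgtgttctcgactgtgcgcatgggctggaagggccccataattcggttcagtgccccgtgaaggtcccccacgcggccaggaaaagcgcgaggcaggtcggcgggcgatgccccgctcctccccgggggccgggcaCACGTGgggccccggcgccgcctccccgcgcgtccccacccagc
Mgll, second start: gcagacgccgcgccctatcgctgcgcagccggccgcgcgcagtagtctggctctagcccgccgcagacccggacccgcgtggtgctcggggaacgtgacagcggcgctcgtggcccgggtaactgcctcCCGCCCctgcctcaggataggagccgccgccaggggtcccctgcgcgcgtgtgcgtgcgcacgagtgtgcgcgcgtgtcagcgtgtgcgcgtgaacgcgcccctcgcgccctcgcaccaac

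The motifs searched over the whole windows were AGGTCA (the core element of nuclear receptors), its direct repeat with 1 base between (the form bound by PPARG with RXR, each match of which also holds the core element), TTGCNNAA (C/EBP type), CACGTG (E-box), TATAAA (a core promoter element) and GGGCGG (GC box). The Lep window held TTGCGCAA at position -55 from the start and a GC box at -98. No match to any of the 6 was found in the Adipoq or Thrsp windows, which says only that these letters are not there. The first Mgll window held an E-box at -44 and a GC box at 3, after the start, and the second a GC box at -121.

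Counting a gene when any of its windows matched, the C/EBP type motif was held by 6 of the 22 genes (27.3%, namely Lep, Rbp4, Plin1, Cidec, Gpam and Pparg), against 12.2% of all 27025 genes with a window. GC boxes were held by 12 (54.5%) against 38.2%. AGGTCA was held by 5 (22.7%) against 18.1%, TATAAA by 3 (13.6%) against 15.7% and CACGTG by 2 (9.09%) against 8.09%. The direct repeat was found in 0 of the 22 and in 0.0481% of all genes. The 22 genes had 31 windows and all 27025 genes had 32851. A gene with more windows has more chances to match, so the shares are not strictly alike. These shares describe letters and were not tested.

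Both transcription factors of the programme were measured, and they differed in direction. Pparg, which encodes the nuclear receptor that drives adipocyte formation, had a level of 9.72 in untreated f/f, 9.24 in untreated EKO, 8.83 in treated EKO and 8.76 in treated f/f skin. Its IMQ difference was -0.97 in f/f, just short of 2-fold, and -0.41 in EKO. The f/f difference was past 2-fold after cyclic loess scaling (-1.004) and after quantile normalization (-1.02). The IMQ arrays of both genotypes lay close together, 0.07 apart. Cebpa, its partner factor, which is also made by epidermal cells and sebocytes, had levels of 9.39, 9.66, 9.80 and 9.73 on the same arrays. Its IMQ difference was 0.34 in f/f and 0.14 in EKO, and without IMQ its EKO level exceeded that of f/f by 0.27.

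The 4 measured secreted proteins were at least 2-fold lower with IMQ in f/f, with a median of -1.91. Adipoq, encoding adiponectin, was at 10.83 in untreated f/f, 10.12 in untreated EKO, 9.52 in treated EKO and 8.89 in treated f/f skin. It was 3.83-fold lower with IMQ in f/f and 1.52-fold lower in EKO. Lep, encoding the satiety hormone leptin, was at 8.14, 7.79, 6.69 and 6.12 in the same order of arrays. Its fold was 4.06 in f/f and 2.14 in EKO, the largest EKO difference of the 31 genes. Both IMQ levels of Lep lay below the floor, where signal approaches background, so these folds are imprecise.

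Retn, encoding resistin, had levels of 11.53 (untreated f/f), 11.05 (untreated EKO), 10.46 (treated EKO) and 9.78 (treated f/f). Its IMQ difference was -1.75 in f/f (3.37-fold lower) and -0.58 in EKO. Rbp4, encoding the serum carrier of retinol, had levels of 9.08, 8.59, 7.95 and 7.20. Its folds were 3.68 in f/f and 1.56 in EKO. For these 4 genes each untreated level exceeded both IMQ levels, and the EKO IMQ level exceeded the f/f IMQ level by between 0.58 (Lep) and 0.75 (Rbp4).

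Of the 4 lipid droplet proteins, Plin1 and Cidec were at least 2-fold lower with IMQ in f/f. Plin1, the perilipin that guards the adipocyte droplet against lipases, was at 9.87 in untreated f/f, 9.39 in untreated EKO, 8.91 in treated EKO and 8.30 in treated f/f skin. The IMQ difference was -1.56 in f/f and -0.48 in EKO. Cidec, which fuses droplets into a single large one, was at 11.23, 10.67, 10.30 and 9.79, with differences of -1.44 and -0.38. Plin4, a perilipin of small droplets, had the differences -0.90 in f/f and -0.28 in EKO.

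Cidea, a droplet protein of the same family as Cidec that is also made by brown fat and sebaceous gland, stood apart from the other 3. Its level was 7.89 in untreated f/f, 7.28 in untreated EKO, 7.61 in treated EKO and 8.32 in treated f/f skin. Its IMQ difference was 0.43 in f/f and 0.33 in EKO, and its EKO minus f/f difference was -0.61 without IMQ and -0.71 with IMQ. This order of the arrays, looked for after the values of Cidea were seen, held for 2.87% of the named genes above the floor and for 4 of the 9 measured sebaceous gland markers, Awat1, Fa2h, Far2 and Dgat2l6. Plin2 and Dgat1, a droplet coat protein and a triglyceride synthase found in many cells, also had it, as did the macrophage marker Cd68 and the fibroblast marker Col3a1. The part of sebaceous cells in the Cidea level was not tested.

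The genes of lipolysis ranged from the largest difference of all to nearly none. Ces1d, a carboxylesterase that hydrolyses triglyceride, was at 10.31 in untreated f/f, 9.54 in untreated EKO, 8.81 in treated EKO and 8.08 in treated f/f skin. It was 4.70-fold lower with IMQ in f/f and 1.67-fold lower in EKO. The gene has close relatives in a cluster of carboxylesterases, and its probe set may read them too. Aqp7, the channel through which glycerol leaves the adipocyte, was at 8.92, 8.24, 8.11 and 7.46. It was 2.76-fold lower with IMQ in f/f and 1.10-fold lower in EKO, so that the 2 EKO levels differed by 0.13. Acvr1c, the activin receptor ALK7 that restrains lipolysis, had a difference of -1.17 in f/f and -0.16 in EKO, and reached the floor only in untreated f/f skin. Mrap, an accessory protein of the ACTH receptor, had differences of -1.04 and -0.44, just past 2-fold in f/f. Under median scaling its f/f difference was -0.990, short of 2-fold.

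The lipases that act in sequence on triglyceride did not pass 2-fold in any comparison. Pnpla2, encoding adipose triglyceride lipase, which takes the first fatty acid, had levels of 10.27 in untreated f/f, 9.84 in untreated EKO, 9.59 in treated EKO and 9.33 in treated f/f skin, with IMQ differences of -0.94 and -0.25. Lipe, the hormone-sensitive lipase of the next step, had levels of 10.06, 9.70, 9.60 and 9.31 and differences of -0.75 and -0.10. Mgll, the monoglyceride lipase of the last step, which many cells make, had levels of 10.14, 9.76, 9.65 and 9.93. Its IMQ differences were -0.21 and -0.11, and its EKO minus f/f differences were -0.38 without and -0.28 with IMQ. Pnpla3, a relative of Pnpla2 that adipocytes and liver regulate with feeding, had differences of -0.86 and -0.35.

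Among the genes of uptake, Lpl, Fabp4 and Cd36 were at least 2-fold lower with IMQ in f/f. Lpl, which frees fatty acids from lipoproteins in capillaries, was at 10.47 in untreated f/f, 10.03 in untreated EKO, 9.80 in treated EKO and 9.19 in treated f/f skin. It was 2.44-fold lower with IMQ in f/f and 1.18-fold lower in EKO. Fabp4, the fatty acid carrier of adipocytes, which endothelial cells and macrophages also make, was at 11.54, 10.94, 10.61 and 10.35, a 2.28-fold and a 1.26-fold difference. Cd36, a fatty acid receptor shared with the same cells, was 2.17-fold lower in f/f and 1.26-fold lower in EKO. Slc2a4, the insulin-regulated glucose transporter GLUT4 of fat and muscle, was 1.77-fold lower in f/f and 1.14-fold lower in EKO.

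Among the genes of glycerol phosphate and triglyceride synthesis, Thrsp, Pck1 and Gpd1 differed more with IMQ in f/f than the acyltransferases. Thrsp, a nuclear protein linked to lipogenesis, was at 8.59 in untreated f/f, 8.19 in untreated EKO, 7.62 in treated EKO and 6.55 in treated f/f skin. It was 4.10-fold lower with IMQ in f/f, where its level lay below the floor, and 1.48-fold lower in EKO. Pck1, the enzyme of glyceroneogenesis, was at 10.08, 9.37, 9.08 and 8.37, lower by 3.26-fold and 1.22-fold. Gpd1, which makes glycerol phosphate from a glycolytic intermediate, was lower by 2.54-fold and 1.16-fold.

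Gpam, the mitochondrial acyltransferase of the first step, differed by -0.61 in f/f and -0.05 in EKO. Agpat2, of the next acylation, differed by -0.59 and -0.31. Dgat2, a triglyceride synthase that epidermis and sebaceous gland also use, was at 11.48 in untreated f/f, 11.51 in untreated EKO, 11.44 in treated EKO and 11.23 in treated f/f skin. Its IMQ differences were -0.26 and -0.06. The 3 acyltransferase genes thus lay between -0.61 and -0.26 in f/f, and Thrsp, Pck1 and Gpd1 between -2.04 and -1.34.

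The remaining genes were Car3, Adipor2 and Ucp1. Car3, a carbonic anhydrase abundant in fat and slow muscle, was at 12.85 in untreated f/f, 12.60 in untreated EKO, 12.29 in treated EKO and 11.83 in treated f/f skin. Its IMQ differences were -1.02 and -0.31, the former being -0.97, short of 2-fold, under median scaling. Adipor2, an adiponectin receptor made by many tissues, differed by -0.23 and -0.07. Ucp1, the uncoupling protein that defines thermogenic fat, was below the floor on all 4 arrays, between 4.97 and 5.08, so no difference in it is read.

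The size of the IMQ difference was smaller in EKO for all 31 genes, and this was also so for 80.5% of the 10646 named genes above the floor. The 17 genes at least 2-fold lower in f/f had a median difference of -1.47 for f/f and of -0.38 for EKO. The EKO difference was a median of 30.1% of the f/f one, from 9.14% (Aqp7) to 54.2% (Lep). Over all 277 named genes at least 2-fold lower in f/f that share had a median of 33.9% (quartiles 21.6% and 43.4%). Both sets were picked by their f/f value, which lowers the share. Over the 31 genes the 2 sets of differences, which share no array, correlated at Pearson r = 0.853 and Spearman rho = 0.817 (n = 31 genes, not independent replicates), and EKO values regressed on f/f values had a slope of 0.335, against 0.380 over all genes reaching the floor.

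Without IMQ, adipocyte genes were lower in EKO than in f/f skin, and with IMQ they were higher. Untreated, 28 of the 31 were below 0 with a median of -0.44, against 0.02 over all named genes above the floor, and 0 passed 2-fold in either direction. Of all genes reaching the floor in that comparison, 0.324% were 2-fold lower or more and 0.0686% 2-fold higher or more. The largest untreated differences were in Ces1d (-0.77), Adipoq (-0.71), Pck1 (-0.70) and Aqp7 (-0.68). Cebpa (0.27), Ucp1 (0.03) and Dgat2 (0.02) were above 0, the last turning to -0.01 after cyclic loess scaling.

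With IMQ, 28 of the 31 were above 0 in EKO relative to f/f, with a median of 0.37 against -0.01 over all genes. Thrsp alone passed 2-fold, at 1.07, where 0.418% of all genes reaching the floor were that much higher and 0.875% that much lower. The treated f/f level of Thrsp, 6.55, lay below the floor, so this difference is imprecise. Rbp4 (0.75), Ces1d (0.73) and Pck1 (0.71) followed, while Cidea (-0.71), Mgll (-0.28) and Ucp1 (-0.09) were below 0. In 26 genes the EKO level was the lower one without IMQ and the higher one with IMQ, as in 22.9% of the 10646 named genes above the floor and 14 of 16 skeletal muscle markers. In the wider list this was so for 20 of 47 genes.

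**Figure D3:**
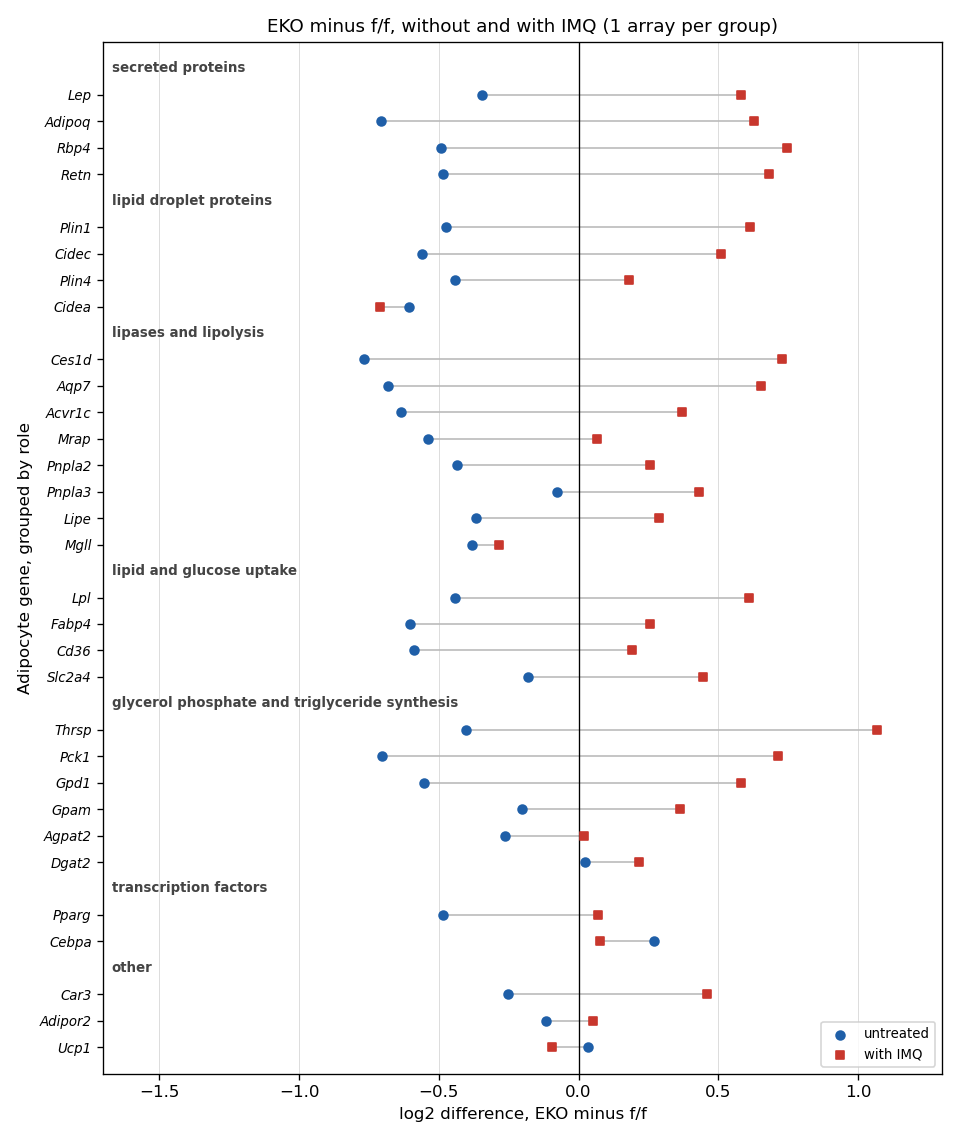
Log2 difference between EKO and f/f skin (x axis) for each of 31 adipocyte genes (y axis, grouped by role), without IMQ (circles) and with IMQ (squares), with 1 array per group and no error bar. In 26 genes the circle lies left of 0 and the square right of it; Cidea and Mgll lie left of 0 in both.

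The difference of the IMQ differences, EKO minus f/f, was above 0 in 28 of the 31 genes, with a median of 0.71 against -0.02 over all genes. At least 2-fold higher were 12 of the 31, against 1.06% of the named genes, and 0 were at least 2-fold lower, against 1.18%. Acvr1c, among the 12 at 1.01, reached the floor only in untreated f/f skin and lay between 0.967 and 0.983 under the 3 other scalings. Thrsp, also among the 12, lay below the floor in treated f/f skin. Ces1d (1.495), Thrsp (1.47), Pck1 (1.42), Adipoq (1.34) and Aqp7 (1.33) were the largest, and Cebpa (-0.19), Ucp1 (-0.13) and Cidea (-0.10) were below 0. This value is the genotype difference with IMQ minus that without, so the lower untreated level in EKO (median -0.44) and the higher IMQ level (median 0.37) both enter it. With 1 array per group it was not tested.

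Other genes of adipocytes and of triglyceride handling were taken from a list of 51 set by role, 47 of which were measured. In f/f skin with IMQ, 10 of the 47 were at least 2-fold lower and 1 at least 2-fold higher, with a median of -0.24, where 2.63% and 3.82% of all named genes reaching the floor were so. In EKO 0 were lower and 1 higher, against 0.0972% and 0.671%. For EKO against f/f the median over the 47 was -0.10 without IMQ and 0.10 with IMQ. Their median difference of the IMQ differences was 0.17. Genes largely made by adipocytes were among the 10: the droplet-bound galectin Lgals12 (-1.49), the amino acid transporter Slc7a10 (-1.64), the GLUT4 traffic protein Trarg1 (-1.03) and the synuclein Sncg (-1.30), which nerve makes too. Nnat, encoding neuronatin, a small membrane protein made by fat and nerve, had the largest difference at -2.12 in f/f and -0.63 in EKO.

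The others past 2-fold were the fatty acid transporter Slc27a1 (-1.20), the phosphatidate phosphatase Lpin1 (-1.24), the insulin receptor substrate Irs1 (-1.13), and Cox8b (-1.25) and Fitm1 (-1.02), which muscle also makes. Of the 47, 13 were above 0 in f/f, among them the droplet protein Plin2 (0.55), Dgat1 (0.33) and Abhd5 (0.43), which activates adipose triglyceride lipase; these 3 were named after their values were seen. Elovl3, a fatty acid elongase of sebaceous gland and brown fat, was the gene at least 2-fold higher in both genotypes (1.57 in f/f, 1.07 in EKO).

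Markers of other ear cells also differed between these arrays, and their part in the adipocyte values was not tested. All 16 skeletal muscle markers were above the floor and below 0 with IMQ in both genotypes, with a median of -1.005 for f/f and of -0.33 for EKO, close to the adipocyte values of -1.04 and -0.29. Their mean log2 level was 10.89 in untreated f/f, 10.70 in untreated EKO, 10.36 in treated EKO and 9.82 in treated f/f skin, beside 9.68, 9.28, 8.98 and 8.64 for the adipocyte genes. Without IMQ the muscle median for EKO against f/f was -0.16, beside -0.44 for adipocyte genes, and with IMQ it was 0.51 (16 of 16 above 0), beside 0.37 (28 of 31). The median difference of the IMQ differences was 0.67 for muscle and 0.71 for adipocyte genes. None of these gaps was tested.

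The 9 measured sebaceous gland markers were mixed for IMQ, with 3 of 9 below 0 in f/f and 2 of 9 in EKO. Their IMQ medians were 0.30 (f/f) and 0.32 (EKO). For EKO against f/f their medians were -0.80 (untreated) and -0.55 (with IMQ). Their mean level was 8.82 in untreated f/f, 8.00 in untreated EKO, 8.34 in treated EKO and 8.94 in treated f/f skin. In the IMQ comparison 8 of the 9 reached the floor in f/f and 7 in EKO. Scd3, a desaturase on that list, had an IMQ difference of -2.16 in f/f.

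Endothelial markers, of cells that also make Cd36 and Fabp4, had a median IMQ difference of -0.39 for f/f and of -0.17 for EKO, with 10 and 9 of 10 below 0. Macrophage markers had medians of -0.32 and -0.06, with 9 and 8 of 12 below 0. Cartilage markers, of which Matn1, Matn3 and Col9a1 lay below the floor on all arrays, had -0.38 and -0.40, and fibroblast markers -0.33 and -0.24, with 9 of 10 below 0 in each genotype for both lists. For EKO against f/f without IMQ the medians were -0.30 (endothelium), -0.22 (macrophage), -0.02 (cartilage) and -0.15 (fibroblast). Neutrophil markers were higher, the median IMQ difference being 2.67 for f/f and 0.44 for EKO, with 9 and 8 of 10 above 0. Of these 10, 9 reached the floor in f/f and 6 in EKO, so the EKO median rests partly on signals near background. In each genotype 8 of 10 endothelial and 11 of 12 macrophage markers reached the floor. Over the 4 arrays the mean log2 level ran from 7.33 to 7.78 for endothelial, 8.76 to 9.08 for macrophage, 7.08 to 7.55 for cartilage, 9.71 to 10.10 for fibroblast and 6.37 to 8.74 for neutrophil markers.

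**Figure D4:**
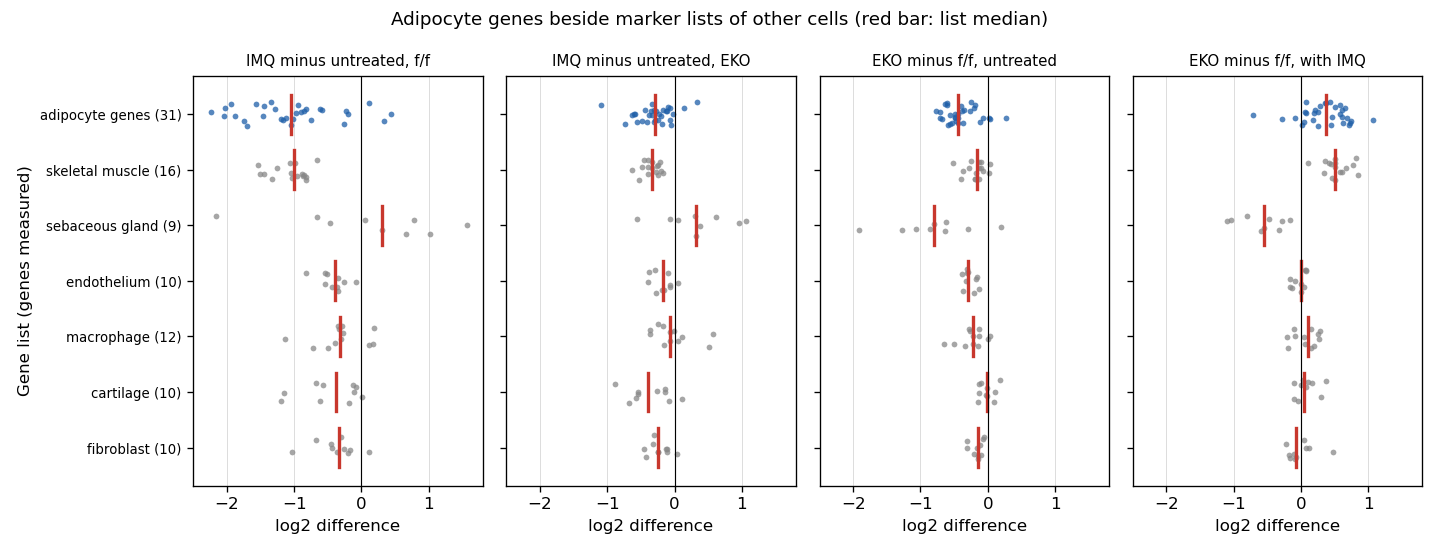
Log2 differences (x axes) in 4 comparisons for the 31 adipocyte genes and 6 marker lists (y axis, number of genes measured); each point is 1 gene, spread vertically for sight, and red bars are list medians. The medians of adipocyte and muscle genes are close with IMQ in f/f (-1.04 and -1.005). Without IMQ between genotypes they are further apart (-0.44 and -0.16), but the muscle values (-0.52 to 0.04) lie within the adipocyte range (-0.77 to 0.27). All sebaceous markers with IMQ, and all but Cyp4f39 without it, lie below 0 for EKO against f/f.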

How the data were processed

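Total RNA of whole ears was read on 4 Affymetrix Mouse Gene 1.0 ST arrays, per the labels' protocols. The authors made log2 levels per probe set with RMA (background correction, quantile normalization, probe summarisation), per the submitters' processing notes; version and chip definition were not stated in the sources used here. That the scale is log2 was inferred from the range of the deposited values (2.58 to 13.8). RMA makes the distributions of the arrays alike, which would hide a shift of most genes one way, and it compresses low signals.

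Of 35556 probe sets, 21789 carried 1 gene symbol in the platform annotation, 1621 several and 12146 none listed; only the first were used. The probe set with the highest mean stood for each of 19938 genes. All 31 symbols matched RefSeq (GRCm38.p6) by Entrez identifier.

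Log2 differences were taken between single arrays, assigned to groups from the sample titles, for 5 comparisons. A gene counted when it differed by at least 1 (2-fold) and its level was at or over the median of named genes on 1 or more of the arrays compared. No p-value was computed, since each group has 1 array. Counting was checked on simulated data. The genes and lists (7 marker lists, 1 wider list) were chosen with earlier results of these data known. All 31 genes are named; others are named where at least 2-fold different or leading a list, or, for the array order of Cidea and for Plin2, Dgat1 and Abhd5, after their values were seen. Promoter sequences were those of the up to 4 genes with the largest f/f difference, and up to 2 of the same roles within 0.3 of 0. Alternatives were 3 scalings, 2 floors, the mean of probe sets, 1.5-fold, and list means. Software was Python 3.11.15, numpy 2.4.6, pandas 2.3.3, scipy 1.17.1, matplotlib 3.10.9, R 4.3.3 and limma 3.58.1 (cyclic loess only).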

Additional observations from a re-analysis of the deposited data

Results flagged for a closer look

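Genotype differences that ran in opposite directions without and with IMQ were picked out where both reached 0.5 on the log2 scale; each side is 1 array against 1 array, and the difference between them was not tested. Over the 31 adipocyte genes the median for EKO against f/f was -0.44 without IMQ and 0.37 with IMQ. Adipoq was at -0.71 without and 0.63 with IMQ, and Cidec at -0.56 and 0.51. Ces1d was at -0.77 and 0.73, and Aqp7 at -0.68 and 0.65. Gpd1 was at -0.55 and 0.58, and Pck1 at -0.70 and 0.71. The share of all named genes meeting this rule was not counted. A turn of any size, from lower to higher in EKO, was found in 22.9% of the 10646 named genes above the floor. Nnat of the wider list (-0.68 and 0.80) and the muscle marker Actn3 (-0.52 and 0.68) met the rule too. The neutrophil marker Cxcr2 met it the other way round (0.93 and -0.78).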

How the results depend on the processing

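Counts of adipocyte genes past the threshold stayed within 1.5 times of the reported ones under median scaling, quantile normalization, cyclic loess, both other floors and the mean of probe sets, in all 5 comparisons. At a 1.5-fold threshold 5 counts of the 31 moved further. They included 4 lower with IMQ in EKO (0.807% of all named genes reaching the floor) and 8 lower in EKO than f/f untreated (1.06%). In EKO against f/f with IMQ 9 were higher (2.03%) and 1 lower (2.61%). For the difference of the IMQ differences 21 were higher (3.65%). The count lower with IMQ in f/f, 17 at 2-fold, stayed within 1.5 times, where 9.53% of all named genes were lower by 1.5-fold. The median over the 31 genes moved by less than 0.1 (log2) under each alternative, the mean included. Of the values for single genes and role groups, 14 moved by at least 0.1 and kept their sign, mostly role-group medians when the mean was taken or genes below the floor were left out, and 626 moved less. Under the 3 scalings a gene's difference moved by at most 0.105 (log2), and Dgat2 in untreated EKO against f/f was the only 1 of 155 values per scaling to change sign. Each gene had 1 probe set, so averaging probe sets changed only the background. No paired analysis was possible because each group has 1 array; leaving out a replicate was not possible for the same reason. Signals below the floor (Ucp1 everywhere, Lep with IMQ, Thrsp in treated f/f, Acvr1c in all but untreated f/f skin) limit those folds.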
